A study of Mus musculus with 6 samples.

Results

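The adhesion of leukocytes to the vessel wall was followed through 9 genes. On the endothelial side these were Sele and Selp, which encode E-selectin and P-selectin, and Icam1, Icam2 and Vcam1, which encode ligands of integrins. On the leukocyte side they were Selplg, which encodes the selectin ligand PSGL-1, and the integrin subunit genes Itgal, Itgb2 and Itga4. The genes were taken by symbol from the deposited table of read counts, and all 9 were found among its 48440 genes. All 9 also passed edgeR's filter on low counts, which left 15257 genes to be tested.

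The samples were murine subcutaneous tissue from male BALB/c nude mice, 6 to 8 weeks old on purchase, that carried cartilage engineered from rabbit BMSCs (BEC) under the skin for 12 weeks. In the 0%-Axitinib group (3 samples), BEC was wrapped in a PCL/collagen nanofibrous membrane without the drug, and in the 3%-Axitinib group (3 samples) the membrane held 3% of axitinib, an inhibitor of VEGF receptors, by weight. No allele other than the nude background was named for either group, and the sample labels describe the former group only as untreated, so its reading as the 0%-Axitinib group rests on the protocol and the design text of the series. The comparison asked how the tissue around the cartilage differed when the membrane released the drug.

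Nude mice lack a normal thymus and therefore most T cells, while their other leukocytes and their endothelium are retained, so the host is a limited model for lymphocyte adhesion. The methods describe 2 constructs of the same group in each mouse, but no label tells which mouse a sample came from, so n counts samples and p-values measure only the spread between these samples. The samples could also hold rabbit RNA, and reads of rabbit transcripts that align to the mouse genome could not be told apart from mouse reads. The depth ranged from 9225518 to 18403795 reads assigned to genes. Expression is given as CPM, scaled with the TMM-normalized library size, and a gene without reads could have been at up to 3 reads, or 0.157 to 0.330 CPM depending on the library (counting error only).

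Leukocytes leave the blood in steps. Selectins on activated endothelium bind glycoproteins such as PSGL-1, so that the leukocyte rolls along the vessel wall, and activated integrins then bind ICAM and VCAM proteins and arrest the cell. The αLβ2 integrin (Itgal with Itgb2) binds ICAM-1 and ICAM-2, whereas the α4 integrins (Itga4 with Itgb1 or Itgb7) bind VCAM-1.

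Some libraries stood apart in their cell markers. In 0%-Axitinib replicate 3, the summed expression of 8 neutrophil markers was 31573 CPM, against 79.9 and 90.3 CPM in replicates 1 and 2 and 182, 137 and 71.8 CPM in the 3%-Axitinib replicates. Their most abundant gene, S100a9, reached 10660 CPM in that library and at most 43.2 CPM elsewhere. The same library led the T cell markers, with a sum of 263 CPM against at most 33.6 CPM, and the T cell receptor component Cd3d was at 66.7 CPM there, at no more than 1.57 CPM in any other sample and at 0 in 3%-Axitinib replicates 2 and 3. It also led the B cell markers, with 299 CPM against at most 68.2 CPM, and the platelet markers, with 1020 CPM against at most 249.9 CPM. In the 3%-Axitinib group, the sum of 14 skeletal muscle markers was 13961 CPM in replicate 1, 25.1 CPM in replicate 2 and 7781 CPM in replicate 3, and in the 0%-Axitinib group it was 153, 22.5 and 23.7 CPM. Of the fibroblast and adipocyte genes, which mark subcutaneous tissue, Col1a1 was at 3181 CPM or more in all samples. Cfd was at 3.37 CPM or more and Lipe at 21.3 CPM or more. Other adipocyte genes were almost absent from 3%-Axitinib replicate 2, with 5 reads of Adipoq, 2 of Plin1 and 6 of Cidec. Lep had 0 reads in 3%-Axitinib replicates 2 and 3. The part of these cell types in the differences below was not tested.

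All 9 adhesion genes had a lower fitted level in the 3%-Axitinib group, where 51.8% of all tested genes did. Their median log2 fold change was -1.07, against -0.03 over all tested genes. The study's criterion, at least 1.5-fold and P at or below 0.05 (the unadjusted P here, since the kind is not stated), was met in the lower direction by 4 of the 9 (Icam2, Vcam1, Itgal and Itga4), and by 11.7% of all tested genes. The same 4 genes were those whose 3 samples of one group lay entirely below the 3 of the other, which held in the lower direction for 16.6% of all tested genes. With p-values adjusted over the whole table, none of the 9 reached 0.05 in edgeR's quasi-likelihood test, which called 0.00655% of all genes (1 gene). In the same test, 4 of the 9 had an unadjusted p of at most 0.05, as did 3585 of the 15257 tested genes. DESeq2's Wald test gave an adjusted p of at most 0.05 to these 4 genes and to 1734 of the 26504 genes with an unadjusted p (6.54%). Those 26504 were taken without edgeR's filter and include any gene that DESeq2 gave no adjusted p. This share is therefore not on the same basis as the others. With limma-voom, an adjusted p of at most 0.05 was given to none of the 9 and to 0.0131% of all tested genes (2 genes). Fewer cells of a type and less RNA per cell cannot be told apart in these bulk samples, either here or in the values that follow.

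The sides did not separate in these counts. On the endothelial side, 5 of 5 genes were lower and 2 met the criterion, with a median log2 fold change of -1.07 and a range from -2.25 to -0.26. On the leukocyte side, 4 of 4 were lower and 2 met the criterion, with a median of -1.21 and a range from -2.45 to -0.77. The adjusted p-values of edgeR's test lay between 0.104 and 0.435 for the former and between 0.0965 and 0.399 for the latter. Leaving out 1 library moved the counts. The endothelial side had 1 gene by the criterion without 0%-Axitinib replicate 3, 3%-Axitinib replicate 1 or 3%-Axitinib replicate 2. Over all tested genes, 2148 of 15690, 1308 of 15878 and 1479 of 15940 were then lower by the criterion, in that order. The leukocyte side had 4 without 3%-Axitinib replicate 3, where 1340 of 15890 tested genes were lower by the criterion. The endothelial median was -0.35 without 0%-Axitinib replicate 1, and with any 1 library left out the leukocyte median lay between -1.54 and -1.09. With total counts in place of TMM, the median of all tested genes moved by -0.13 and 2448 of 3437 genes met the criterion in the lower direction, against 1785 of 3241 with TMM. With that median subtracted, which takes out such a shift by construction, the log2 fold changes of the 9 genes ran from -2.41 to -0.23 with total counts.

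**Figure D1:**
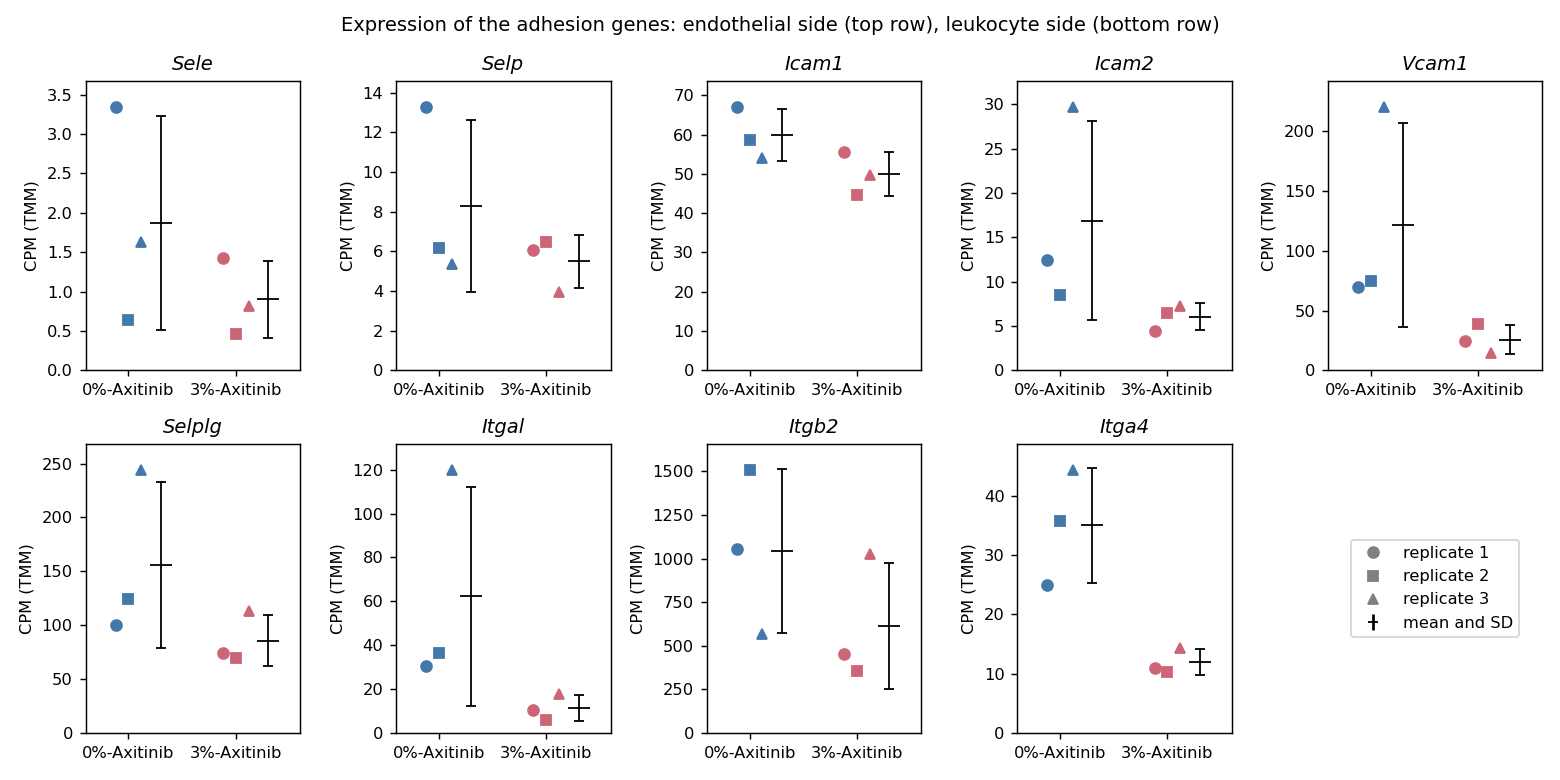
Expression of the 9 adhesion genes in CPM (linear axis from 0) in the 3 samples of the 0%-Axitinib group and the 3 of the 3%-Axitinib group, with circles, squares and triangles for replicates 1, 2 and 3 and a black bar for the mean and SD. The groups do not overlap for Icam2, Vcam1, Itgal and Itga4, whereas for the other 5 genes at least 1 sample of the 3%-Axitinib group reaches the range of the 0%-Axitinib group.

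Levels were compared between genes per kb of exon (CPM per kb, over the joined exons of all annotated transcripts). In the 0%-Axitinib group the order was Itgb2 (342 ± 154 CPM per kb, SD, n = 3), Selplg (36.6 ± 18.03), Icam1 (13.7 ± 1.51), Vcam1 (13.7 ± 9.62), Itgal (9.47 ± 7.61), Icam2 (8.87 ± 5.90), Itga4 (2.51 ± 0.69), Selp (1.87 ± 0.98) and Sele (0.642 ± 0.469). The ranges of Itgb2, Selplg and Icam1 were separate from each other, those of Icam1, Vcam1, Itgal and Icam2 overlapped from neighbour to neighbour, and so did those of Itga4 and Selp. In the 3%-Axitinib group the order was Itgb2 (200.4 ± 118 CPM per kb, SD, n = 3), Selplg (20.1 ± 5.61), Icam1 (11.5 ± 1.26), Icam2 (3.18 ± 0.78), Vcam1 (2.89 ± 1.39), Itgal (1.72 ± 0.91), Selp (1.24 ± 0.31), Itga4 (0.852 ± 0.158) and Sele (0.309 ± 0.169). There, Icam1 was separate from both of its neighbours, while the ranges from Icam2 down to Itga4 overlapped from neighbour to neighbour. Itgb2 and Selplg therefore held the top places by mean in both groups and Sele the last. Vcam1, whose mean was close to that of Icam1 in the 0%-Axitinib group, was below every Icam1 value in the 3%-Axitinib group.

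Both selectin genes overlapped between groups, and Sele had the lowest mean of the 9 in each. Sele, which endothelium makes when activated by cytokines, was at 3.34, 0.641 and 1.63 CPM in replicates 1, 2 and 3 of the 0%-Axitinib group and at 1.43, 0.456 and 0.811 CPM in those of the 3%-Axitinib group. These values rested on 64, 11 and 30 reads and on 13, 5 and 14 reads. In each group replicate 1 was the highest and replicate 2 the lowest, and 2 samples of the 3%-Axitinib group lay within the range of the other group. For Sele, the log2 fold change was -1.07 (95% confidence interval -2.77 to 0.62, adjusted p = 0.390 in edgeR's test), an interval that includes 0. It was -0.35 without 0%-Axitinib replicate 1, in which Sele was highest, and -1.17 without 0%-Axitinib replicate 3.

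Selp, whose product is stored in granules of endothelium and platelets and moved to the surface on activation, was at 13.3, 6.18 and 5.38 CPM in the 0%-Axitinib group and at 6.05, 6.47 and 3.94 CPM in the 3%-Axitinib group. Only 0%-Axitinib replicate 1 was high, and the other 5 samples were mixed. The log2 fold change was -0.60 (95% confidence interval -1.64 to 0.45, adjusted p = 0.435 in edgeR's test), -0.08 without that sample and -0.84 without 0%-Axitinib replicate 3. Platelet markers were set beside Selp, and their part in its values was not tested. Itga2b, which encodes the platelet integrin subunit αIIb, was at 232 CPM in 0%-Axitinib replicate 3 and between 7.76 and 17.0 CPM elsewhere, and the platelet chemokine gene Ppbp was at 264 CPM there and at no more than 3.37 CPM elsewhere, while Selp was lower in that sample than in replicates 1 and 2 of its group. Pf4, the most abundant of the 9 platelet markers, had a log2 fold change of 0.27, the highest of its list, and Ppbp had the lowest, -5.33. Of the 6 platelet markers tested, 5 were lower and 1 met the criterion.

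Among the integrin ligands, Icam1 was the most even. Icam1, which endothelium, leukocytes and fibroblasts can all express, was at 66.9, 58.6 and 53.9 CPM in the 0%-Axitinib group and at 55.6, 44.6 and 49.6 CPM in the 3%-Axitinib group. The ranges overlapped in the pair of 0%-Axitinib replicate 3 and 3%-Axitinib replicate 1, which differed by little, and the remaining samples were ordered by group. Its log2 fold change was -0.26 (95% confidence interval -0.68 to 0.16, adjusted p = 0.399 in edgeR's test), the smallest of the 9 in size. Leaving out any 1 library kept it between -0.34 and -0.17.

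Icam2, which resting endothelium, platelets and leukocytes express, was at 12.5, 8.51 and 29.7 CPM in the 0%-Axitinib group and at 4.40, 6.47 and 7.30 CPM in the 3%-Axitinib group. Every 3%-Axitinib sample was below every 0%-Axitinib sample, and 0%-Axitinib replicate 3 was far above the rest. This was a log2 fold change of -1.47 (95% confidence interval -2.67 to -0.28, adjusted p = 0.153 in edgeR's test), or 2.78-fold lower. It rested in part on 0%-Axitinib replicate 3, without which it was -0.79 and the criterion was missed. The criterion was also missed without 3%-Axitinib replicate 1 (-1.28), without 3%-Axitinib replicate 2 (-1.51) and with limma-voom (-1.26), where the fold stayed about as large and p rose above 0.05.

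Vcam1, which cytokine-activated endothelium expresses along with some stromal cells and macrophages, had the lowest log2 fold change of the endothelial side. It was at 69.7, 75.1 and 220 CPM in the 0%-Axitinib group and at 24.2, 38.6 and 14.2 CPM in the 3%-Axitinib group. All 3 samples of the latter were below all of the former, and again 0%-Axitinib replicate 3 was the highest. Its log2 fold change was -2.25 (95% confidence interval -3.59 to -0.90, adjusted p = 0.104 in edgeR's test), or 4.75-fold lower. Without 0%-Axitinib replicate 3 it was -1.50, with an adjusted p of 0.0591, and over all alternatives the adjusted p lay between 0.00175 and 0.287. The criterion was met in all 14 of them.

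On the leukocyte side, Selplg, the PSGL-1 gene of most leukocytes, was at 99.96, 125 and 244 CPM in the 0%-Axitinib group and at 73.9, 70.0 and 113 CPM in the 3%-Axitinib group. The ranges overlapped because 3%-Axitinib replicate 3 was above 0%-Axitinib replicate 1. Between groups, the log2 fold change was -0.86 (95% confidence interval -1.77 to 0.04, adjusted p = 0.228 in edgeR's test). The criterion was missed, and it was met in 6 of 14 alternatives, those of total counts, DESeq2, no filter and the replicate block and those without 0%-Axitinib replicate 1 or 3%-Axitinib replicate 3. It was -0.39 once 0%-Axitinib replicate 3 was left out.

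Itgal, which encodes the αL chain of LFA-1 and is expressed by lymphocytes and, at lower levels, by myeloid cells, was at 30.5, 36.4 and 120 CPM in the 0%-Axitinib group and at 10.4, 5.83 and 17.7 CPM in the 3%-Axitinib group. The groups did not overlap, and the highest sample was 0%-Axitinib replicate 3, the library with the most T, B and NK cell marker RNA. The log2 fold change of -2.45 (95% confidence interval -3.98 to -0.92, adjusted p = 0.109 in edgeR's test), or 5.47-fold lower, was the lowest of the 9. It was -1.55 without that library, with an adjusted p of 0.0670, and over all alternatives the adjusted p lay between 0.00197 and 0.294. The NK cell markers, which include the granzyme gene Gzma, summed to 9.08, 24.7 and 64.5 CPM in the 0%-Axitinib group and to 2.75, 2.64 and 5.21 CPM in the 3%-Axitinib group. All 5 met the criterion in the lower direction, with Gzma (-2.86) as the highest and the most abundant. For Gzma, all 3 samples of each group reached the filter's minimum of 0.580 CPM. For Ncr1 and Klrk1, 2 samples of the 3%-Axitinib group reached it, and for Prf1 1 did. These genes passed the filter through the 0%-Axitinib group, where they are high, so their calls are no support. The lowest, Klrb1c (13, 27 and 48 reads against 1, 1 and 3), was tested only through the 0%-Axitinib group and had to be lower.

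Itga4, which encodes the α4 chain used by lymphocytes and monocytes, was at 25.0, 35.8 and 44.4 CPM in the 0%-Axitinib group and at 10.998, 10.3 and 14.4 CPM in the 3%-Axitinib group. The groups were separate, and the 0%-Axitinib samples lay closer together than for Itgal or Vcam1. Its log2 fold change was -1.56 (standard error 0.28, 95% confidence interval -2.22 to -0.89), or 2.94-fold lower, with an adjusted p of 0.0965 in edgeR's test, the lowest of the 9. It was between -1.75 and -1.35 with any 1 library left out. The adjusted p was 0.0402 without 0%-Axitinib replicate 3 and 0.000439 with DESeq2, and the highest over all alternatives was 0.280.

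Itgb2, which encodes the β2 chain shared by the leukocyte integrins, was at 1052, 1508 and 570 CPM in the 0%-Axitinib group and at 454, 357 and 1024 CPM in the 3%-Axitinib group. The order of samples was unlike that of Itgal: 0%-Axitinib replicate 3 was the lowest of its group, and 3%-Axitinib replicate 3 lay within the range of the other group. The log2 fold change was -0.77 (95% confidence interval -2.02 to 0.48, adjusted p = 0.399 in edgeR's test). Without 3%-Axitinib replicate 3 it was -1.37 and the criterion was met. The criterion was missed when any other library was left out: 0%-Axitinib replicate 1 (-0.77), 2 (-0.41) or 3 (-1.07), or 3%-Axitinib replicate 1 (-0.59) or 2 (-0.50).

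**Figure D2:**
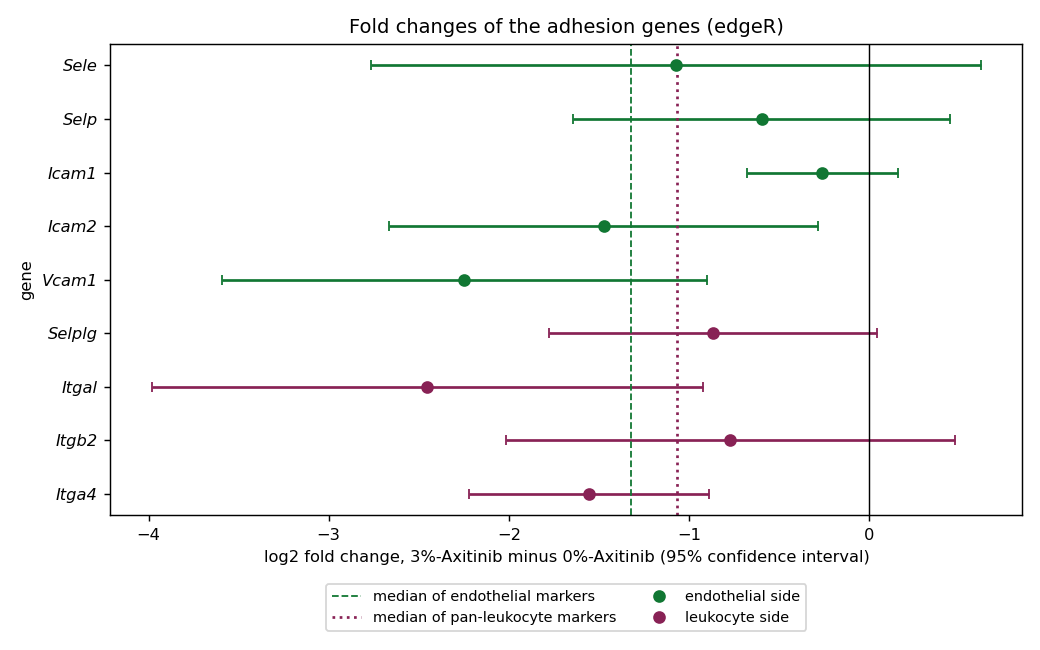
Log2 fold change of each adhesion gene (3%-Axitinib minus 0%-Axitinib, edgeR) with its 95% confidence interval, green for the endothelial and purple for the leukocyte side, beside the median of the endothelial markers (dashed line, -1.32) and of the pan-leukocyte markers (dotted line, -1.06). The intervals of Icam2, Vcam1, Itgal and Itga4 lie wholly below 0, and the interval of Icam1 lies wholly to the right of both lines.

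The α chains that share Itgb2 were set beside it per kb of exon, a comparison chosen after the values were seen. Besides Itgal these were Itgam and Itgax, which encode the αM and αX chains of myeloid cells, and Itgad, which encodes αD. Itgax was at 289.9, 469 and 65.8 CPM per kb in the 0%-Axitinib group and at 84.2, 62.7 and 170 CPM per kb in the 3%-Axitinib group. The samples high in Itgax were those high in Itgb2. Itgal made up between 1.05% and 1.47% of the summed α chain level in 5 samples and 13.004% in 0%-Axitinib replicate 3. Itgax made up 46.9% in that library, with Itgam at 39.5%, and between 74.3% and 94.4% in the others. Itgb2 was between 0.994 and 1.73 times the summed α chain level in all 6 samples, although the sum itself ranged from 84.4 to 497 CPM per kb.

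**Figure D3:**
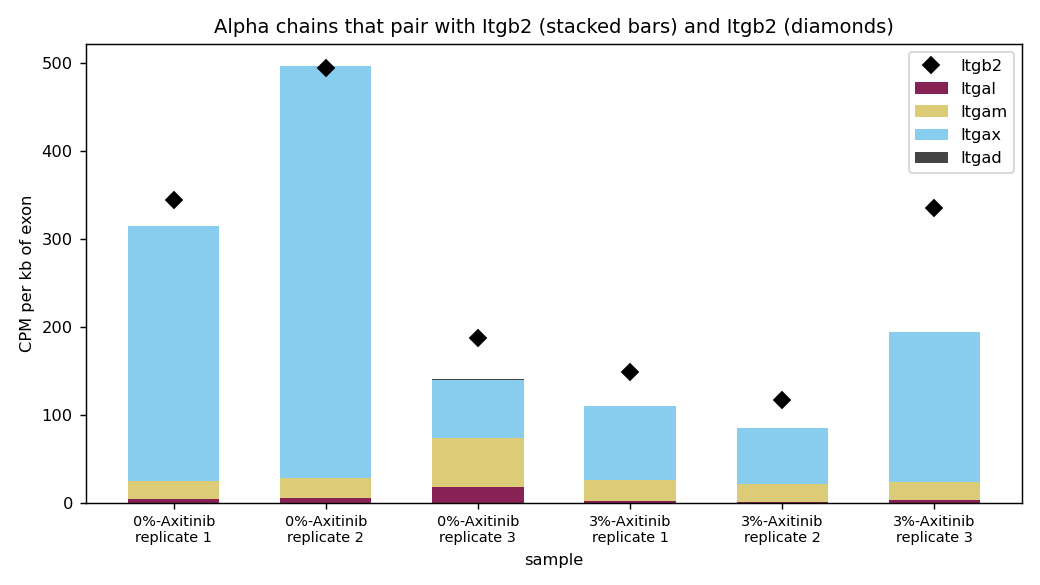
Level of the α chain genes Itgal, Itgam, Itgax and Itgad (stacked bars) and of Itgb2 (black diamonds) in CPM per kb of exon in each of the 6 samples. Itgax forms most of the bar in every sample except 0%-Axitinib replicate 3, where its share is 46.9%, and the diamonds rise and fall with the height of the bars.

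The endothelial side was then compared with the leukocyte side within each sample, as the difference in log2 CPM between a vessel wall gene and its partner (prior count 2). Across the 5 pairs, exact two-sided permutation tests over samples were used, in which 3 samples against 3 cannot give a p below 0.1. For Icam1 and Itgal the difference was 1.13, 0.68 and -1.15 in replicates 1, 2 and 3 of the 0%-Axitinib group and 2.40, 2.91 and 1.48 in those of the 3%-Axitinib group. All 3 of the latter were above all of the former, so that Icam1 was higher relative to Itgal in the 3%-Axitinib group by 2.04 on average (exact permutation p = 0.1, 0.25 after adjustment over the 5 pairs). Without 0%-Axitinib replicate 3, this difference between groups was 1.36.

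For Icam2 and Itgal the values were -1.28, -2.08 and -2.01 against -1.22, 0.15 and -1.26. The groups were separate by a narrow margin, with -1.28 and -1.26 as the nearest values, and the mean difference was 1.01 (exact permutation p = 0.1, 0.25 after adjustment over the 5 pairs), or 0.55 without 3%-Axitinib replicate 2. Vcam1 minus Itga4 was 1.47, 1.06 and 2.31 in the 0%-Axitinib group and 1.13, 1.89 and -0.02 in the 3%-Axitinib group. These samples were mixed, and 3%-Axitinib replicate 3 was the lowest of all (mean difference -0.62, exact permutation p = 0.5). Selp minus Selplg was -2.90, -4.30 and -5.47 against -3.58, -3.41 and -4.80, and the range of the 3%-Axitinib group lay inside that of the other (mean difference 0.29, exact permutation p = 0.8). Sele minus Selplg was -4.85, -7.34 and -7.12 against -5.57, -6.90 and -6.91, with the same arrangement and a mean difference of -0.03 (exact permutation p = 1). With 1 library left out, the mean difference ran from -1.06 (without 3%-Axitinib replicate 2) to -0.10 (without 3%-Axitinib replicate 3) for Vcam1 minus Itga4, and for both selectin pairs its sign turned.

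**Figure D4:**
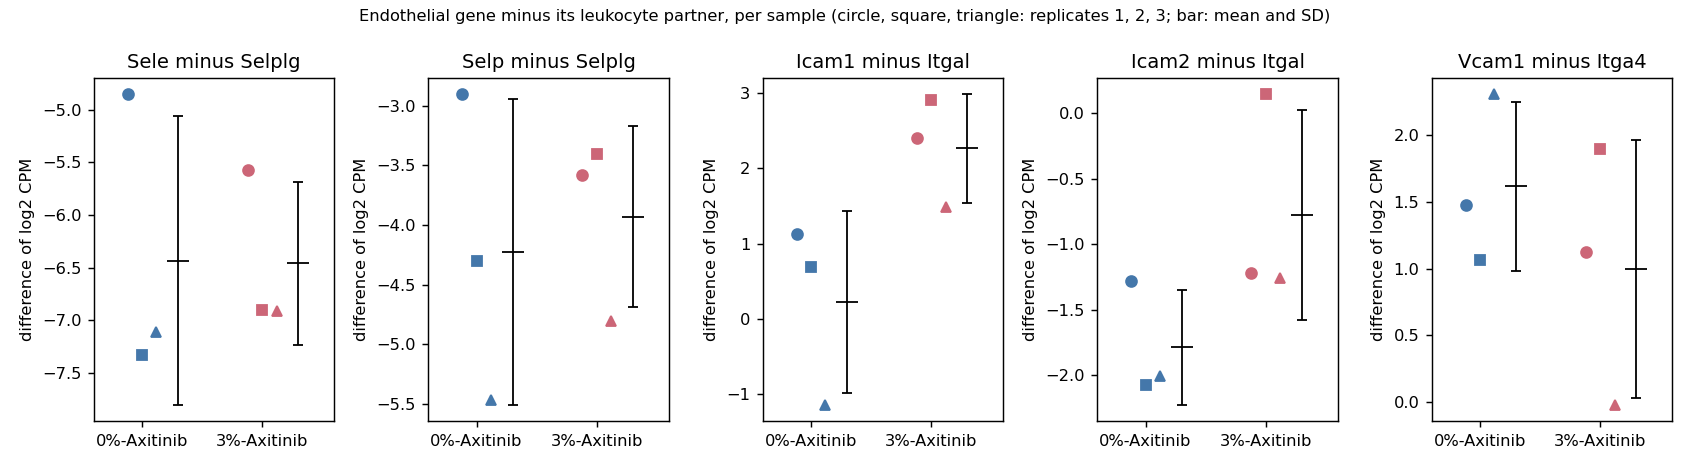
Difference in log2 CPM between an endothelial gene and its leukocyte partner in each sample of both groups, with circles, squares and triangles for replicates 1, 2 and 3 and a bar for the mean and SD. For the pairs with Itgal, all 3%-Axitinib samples lie above all 0%-Axitinib samples, by a narrow margin for Icam2, and for the other 3 pairs the groups overlap.

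Each gene was also set against markers of the cells of its side. All 12 endothelial markers were lower in the 3%-Axitinib group and 11 met the criterion, with a median log2 fold change of -1.32. Their summed level was 686, 494 and 741 CPM in the 0%-Axitinib group and 264, 374 and 377 CPM in the 3%-Axitinib group. They ranged from Cldn5, a tight junction gene (-2.38), to Eng, which encodes endoglin and is the most abundant (-0.01). All 10 pan-leukocyte markers were lower and 3 met the criterion, with a median of -1.06, from Ptprc, which encodes CD45 (-1.84), to Was (-0.43), and Laptm5 as the most abundant. Their summed level was 2757, 4047 and 5171 CPM in the 0%-Axitinib group and 1849, 1887 and 2796 CPM in the 3%-Axitinib group, ranges that overlapped in 1 sample.

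Relative to the mean log2 CPM of the endothelial markers, Icam1 was at 0.55, 0.86 and 0.08 in the 0%-Axitinib group and at 2.22, 1.38 and 1.27 in the 3%-Axitinib group. All 3%-Axitinib samples were above all others (mean difference 1.12, exact two-sided permutation p = 0.1, the smallest possible, with 9 genes compared in this way). Relative to the same markers, Selp, Sele, Icam2 and Vcam1 overlapped between groups, with mean differences of 0.89, 0.56, 0.09 and -0.76. Icam2 was at -1.86, -1.90 and -0.78 in the 0%-Axitinib group and at -1.40, -1.38 and -1.47 in the 3%-Axitinib group. Its small mean difference rested on 0%-Axitinib replicate 3, without which it was 0.46. For Vcam1, leaving out 1 library gave mean differences from -1.11 (0%-Axitinib replicate 1 left out) to -0.22 (3%-Axitinib replicate 3 left out).

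Relative to the pan-leukocyte markers, Itgal was at -2.27, -2.43 and -1.52 in the 0%-Axitinib group and at -3.32, -4.16 and -2.99 in the 3%-Axitinib group. The groups were separate, with a mean difference of -1.42 (exact two-sided permutation p = 0.1). Itga4 was at -2.55, -2.46 and -2.96 against -3.25, -3.35 and -3.28, again with all 3%-Axitinib samples below the others (mean difference -0.64, exact two-sided permutation p = 0.1). Selplg stayed close to the markers in every sample, at -0.56, -0.66 and -0.50 against -0.52, -0.60 and -0.32, with a mean difference of 0.09. Itgb2 also overlapped between groups, with a mean difference of 0.07 that was -0.65 without 0%-Axitinib replicate 3. The marker lists themselves overlapped when one was taken from the other, at -1.69, -2.61 and -2.76 against -3.14, -2.63 and -2.78 (exact two-sided permutation p = 0.2).

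Finer cell types were followed with further lists. Of the 10 macrophage and monocyte markers, 6 were lower and 1 met the criterion, with a median log2 fold change of -0.07. Their sum was 11439, 11897 and 8852 CPM in the 0%-Axitinib group and 8164, 10651 and 16693 CPM in the 3%-Axitinib group, with Lyz2 as the most abundant. The exception was Ccr2, the chemokine receptor of inflammatory monocytes, with a log2 fold change of -2.36, and C1qb was the highest at 0.35. The T cell markers had 8 of 8 tested genes lower and 5 by the criterion (median -3.45, from -4.10 for Cd3e to -0.17 for Cd2), and 2 of them separated the groups. Their sum was 16.0, 33.6 and 263 CPM in the 0%-Axitinib group and 18.6, 14.6 and 16.7 CPM in the 3%-Axitinib group. Of the 5, only Lck reached the filter's minimum in all 3 samples of each group. Cd5 and Trbc1 passed through the 0%-Axitinib group, with 1 and 2 samples of the 3%-Axitinib group at the minimum. Their calls, and the separation of Cd5, are therefore no support. Cd3e reached it in 2 samples of the 0%-Axitinib group and 1 of the other, and Trbc2 in 2 of each. The B cell markers had 4 of 4 lower and 4 by the criterion, with the highest value, -1.31, in Cd22, the most abundant. The lowest was in Ms4a1, with 33, 18 and 260 reads against 0, 1 and 0, which was tested only through the 0%-Axitinib group (no 3%-Axitinib sample reached the filter's minimum of 0.580 CPM) and therefore had to be lower. Its summed reads per library size were 212 times those of the 3%-Axitinib group, with a 95% counting interval of 37.8 to 8410. Cd79b reached the minimum in 2 samples of the 3%-Axitinib group and Cd79a in 1. Both passed the filter through the 0%-Axitinib group, where they are high, so their calls are no support. Cd22 reached it in all 3 samples of each group. The neutrophil markers had 7 of 7 lower and 4 by the criterion (median -7.09, from -10.97 for Camp to -1.44 for Csf3r), although none of them separated the groups. Of these, Ngp passed the filter through the 0%-Axitinib group, with 2 samples of the 3%-Axitinib group at the minimum, so its call is no support. For each of these 3 lists, the largest sum was that of 0%-Axitinib replicate 3.

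Of the stromal lists, the 8 fibroblast markers were all higher (median 0.79, from 0.26 for Pdgfra to 1.79 for Col1a1) and 2 met the criterion. Their sum was 26322, 13245 and 10153 CPM in the 0%-Axitinib group and 23058, 71155 and 25652 CPM in the 3%-Axitinib group, ranges that overlapped, and Col1a1 was at 30639 CPM in 3%-Axitinib replicate 2 and at no more than 9337 CPM elsewhere. The 8 smooth muscle and pericyte markers had 3 lower, 2 of them by the criterion (median 0.31, from -2.22 for Rgs5 to 1.67 for Cnn1, with Pdgfrb as the most abundant). All 6 adipocyte markers were lower, with the highest value, -0.40, in Lipe, and Cfd as the most abundant. The lowest was in Lep, the only one by the criterion, with 26, 44 and 23 reads against 1, 0 and 0 (a ratio of 63.5, 95% counting interval 11.1 to 2533), which again was tested only through the 0%-Axitinib group, so the list gives no call of its own. The adipocyte sum was lowest in 3%-Axitinib replicate 2, at 25.9 CPM against 66.3 CPM or more elsewhere. Of the 12 tested skeletal muscle markers, 10 met the criterion in the higher direction (median 6.77, from 3.84 for Ryr1 to 8.19 for Myh1, with Acta1 as the most abundant), without separating the groups. Of 5 lymphatic endothelial markers, 2 were tested, Flt4 (-1.83, by the criterion) and Reln (0.24, the most abundant).

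Genes that act with the 9 were taken as 5 lists of 61 genes, of which 56 were tested. By the criterion, 19 were lower and 1 was higher, where 11.7% and 9.54% of all tested genes were, and none reached an adjusted p of 0.05 in edgeR's test. The groups did not overlap for 19 lower and 3 higher genes, which held for 16.6% and 14.7% of all tested genes. Among the 19 lower genes by the criterion, Cd6, Skap1 and Itgae passed the filter through the 0%-Axitinib group, where they are high, so their calls are no support. No 3%-Axitinib sample reached the filter's minimum of 0.580 CPM for Cd6 or Skap1, and 1 did for Itgae.

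The first list held enzymes that build selectin ligands on PSGL-1. Of 9 tested, 8 were lower and 3 met the criterion, with a median log2 fold change of -0.39. Fut7, the fucosyltransferase of leukocyte selectin ligands, was at 2.87, 3.67 and 11.6 CPM in the 0%-Axitinib group and at 1.54, 1.82 and 2.66 CPM in the 3%-Axitinib group (log2 fold change -1.58). Fut4, another fucosyltransferase, was at 5.69, 6.76 and 10.4 CPM against 2.75, 2.19 and 2.20 CPM, the lowest log2 fold change of the list (-1.68). Gcnt1, which makes the core branch of the O-glycans that carry these ligands, was at 25.7, 36.1 and 36.0 CPM against 13.2, 17.7 and 16.6 CPM (-1.04). All 3 of these genes separated the groups, which Selplg itself did not. B4galt1, the most abundant, was at 186, 199 and 184 CPM against 215, 175 and 179 CPM, and the tyrosine sulfotransferase gene Tpst2 was the highest at 0.37. Chst4, a sulfotransferase of high endothelial venules, had no read in any sample, which allows a level of up to 0.330 CPM.

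Other adhesion receptors of leukocytes were all lower (8 of 8 tested), with a median of -0.98 and 3 by the criterion. These were Spn, which encodes CD43 (17.0, 18.2 and 108 CPM against 4.51, 7.74 and 9.44 CPM, log2 fold change -2.71), the T cell glycoprotein gene Cd6 (11, 30 and 203 reads against 3, 3 and 1, the lowest and tested only through the 0%-Axitinib group) and Itgae, which encodes αE. Itgae was at 2.51, 2.39 and 2.12 CPM against 0.770, 0.091 and 0.463 CPM (log2 fold change -2.41), and its 0%-Axitinib samples carried it past the filter. Itgae separated the groups although 0%-Axitinib replicate 3 was the lowest of its group. Only 1 of its 3%-Axitinib samples reached the filter's minimum of 0.580 CPM, so this separation is no support. Itgax was the most abundant of the list in CPM. The β partners of Itga4 differed less than Itga4: Itgb1 was at 639, 694 and 393 CPM against 503, 556 and 402 CPM (log2 fold change -0.24, the highest of the list), and Itgb7 at 67.8, 87.5 and 132 CPM against 60.9, 62.8 and 72.9 CPM (-0.55). Both overlapped between groups.

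Other adhesion and junction proteins of endothelium were mixed. Of 13 tested, 8 were lower, 4 met the criterion in the lower direction and 1 in the higher, with a median of -0.64. Cdh5, which encodes VE-cadherin, was at 151, 117 and 144 CPM in the 0%-Axitinib group and at 15.4, 25.8 and 38.7 CPM in the 3%-Axitinib group (log2 fold change -2.37, the lowest of the list). The junction genes Pecam1 (-1.61), F11r (-1.58) and Esam (-1.31) also met the criterion. Jam3, which encodes another junction protein and a ligand of αMβ2, was at 24.6, 12.2 and 11.6 CPM against 35.0, 41.2 and 24.8 CPM (1.06), the highest of the list. Cd34 was the most abundant, with 379.7, 188 and 207 CPM against 397, 148 and 371 CPM and no separation.

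Among genes of integrin activation, 10 of 13 were lower and 5 met the criterion, with a median of -0.56. Rap1b, a small GTPase that switches integrins to their active form, was at 323, 335 and 486 CPM in the 0%-Axitinib group and at 217, 210 and 199.9 CPM in the 3%-Axitinib group (log2 fold change -0.87). Rassf5, which encodes a Rap1 effector bound to αL, was at 22.9, 28.0 and 73.2 CPM against 15.6, 19.2 and 18.7 CPM (-1.21). Both separated the groups, as did the adaptor genes Fyb (-0.85) and Skap2 (-0.84). The lowest was the adaptor gene Skap1, with 15, 24 and 139 reads against 5, 2 and 6, which was tested only through the 0%-Axitinib group. Tln1, which encodes talin and was the most abundant, overlapped between groups (-0.53), and Sharpin, an inhibitor of integrin activation, was the highest of the list (0.40).

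Cytokines and NF-κB genes, which drive the expression of Sele, Icam1 and Vcam1 in endothelium, had 9 of 13 lower and 4 by the criterion, with a median of -0.45. Tnf was at 9.45, 9.45 and 22.2 CPM in the 0%-Axitinib group and at 6.93, 3.28 and 7.12 CPM in the 3%-Axitinib group (log2 fold change -1.24), and these ranges were separate. Irf1, an interferon-induced transcription factor, was at 55.3, 51.1 and 164 CPM against 32.8, 33.1 and 35.1 CPM (-1.42), also separate. Il1b was the lowest of the list (-2.10) and overlapped between groups, as did Tnfaip3, an inhibitor of NF-κB (-0.91). The TNF receptor gene Tnfrsf1a was both the most abundant and the highest, at 213, 203 and 201 CPM against 300.2, 264 and 295 CPM (0.48), with every 3%-Axitinib sample above every other. It did not reach the fold of the criterion.

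For each adhesion gene, the 2 genes of at least 5 CPM with the most similar pattern were found by the root mean square difference, over the 6 samples, of log2 CPM centred on the mean of the 0%-Axitinib group. Itgal was nearest to the MHC class II gene H2-Ab1 (0.15) and to Cldn15 (0.28), against a median of 1.83 over 11548 genes. Vcam1 was nearest to Smc2 (0.24) and Ccr2 (0.29), against a median of 1.70. Itga4 was nearest to Tet3 (0.17) and Rassf3 (0.19), and Icam2 to Tmem194b (0.15) and Grap (0.19). Selplg lay near Sp140 (0.08) and Tmem51 (0.09), Itgb2 near Vps37b (0.16) and Evl (0.17), and Icam1 near Fam129a (0.06) and Aktip (0.07). Selp lay near Chrdl1 (0.16) and Ogn (0.18). Sele had no close neighbour by this measure, with Galnt18 (0.45) and Msx1 (0.46) as the nearest. Among the 9 genes themselves, the closest pair was Selp with Icam1 (0.43), followed by Icam2 with Selplg (0.49) and Icam2 with Itga4 (0.50), and the farthest was Selp with Itgal (1.72). The closeness of genes in 6 samples, of which some differ in cell content, is a description only.

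All 9 genes were found in the GENCODE M21 annotation of GRCm38, where each is protein-coding. Sele (chr1:164048234-164057677) and Selp (chr1:164115264-164150026) lie on the plus strand of chromosome 1 within 102 kb, and both were highest in 0%-Axitinib replicate 1. Icam1 (chr9:21015985-21028817, plus strand), Itgb2 (chr10:77530252-77565708, plus strand) and Itga4 (chr2:79255426-79333123, plus strand) lie apart from each other. Itgal (chr7:127296260-127335138, plus strand) lies within 928 kb of chromosome 7 that also hold Itgam, Itgax and Itgad. Selplg (chr5:113818536-113832644), Icam2 (chr11:106377656-106388075) and Vcam1 (chr3:116109949-116129688) are on the minus strand. It was not stated whether the counting used the strand, so reads of genes that overlap on the opposite strand could not be told apart. Itga4 overlaps Cerkl, which had between 5 and 51 reads per sample, and Selp overlaps Gm16548 (at most 10 reads) and Gm16587 (at most 4 reads). Vcam1 overlaps Gm43109, with at most 1 read, and Icam1 overlaps Gm47079, which was not analysed here. Beside 100 to 817 reads for Itga4 and 55 to 254 for Selp, these counts were small.

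Promoter sequences, from 250 bases before to 50 bases after the start, were taken from RefSeq (GRCm38.p6) for the 4 genes that matched by symbol, Sele, Selp, Icam1 and Itga4. Both strands were searched. An NF-κB-like GGGNNTTCC was present in 5.82% of all 32851 promoters, and the same motif with 1 more T in 1.63%. An ETS-like GAGGAA was present in 28.3% of all promoters, a GATA-like motif spelled GATAA in 25.4% and the TATA-like motif spelled TATAAA in 13.6%. Neither NF-κB-like spelling was present in the 4 promoters, which says only that these letters are not in these windows. The Sele promoter held 4 matches: the GATA-like motif at 238 and 88 bases before the start, the ETS-like motif on the opposite strand at 107 bases before it, and the TATA-like motif at 49 bases before it. The Icam1 promoter held the TATA-like motif, 14 bases after the RefSeq start and 32 bases before the start in GENCODE. Those of Selp and Itga4 held none. The promoters of Sele, with the most matches, and of Icam1 and Itga4, which had the highest and the lowest log2 fold change of the 4 genes, are shown 5′ to 3′ on the plus strand with every match in capitals, at chr1:164047984-164048283, chr9:21015690-21015989 and chr2:79255176-79255475.
Sele: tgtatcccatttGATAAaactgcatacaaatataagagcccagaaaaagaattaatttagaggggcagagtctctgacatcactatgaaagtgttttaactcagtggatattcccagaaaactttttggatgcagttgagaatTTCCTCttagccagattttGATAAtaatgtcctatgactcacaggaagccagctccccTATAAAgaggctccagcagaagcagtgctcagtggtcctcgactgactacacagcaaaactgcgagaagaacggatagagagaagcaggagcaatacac
Icam1: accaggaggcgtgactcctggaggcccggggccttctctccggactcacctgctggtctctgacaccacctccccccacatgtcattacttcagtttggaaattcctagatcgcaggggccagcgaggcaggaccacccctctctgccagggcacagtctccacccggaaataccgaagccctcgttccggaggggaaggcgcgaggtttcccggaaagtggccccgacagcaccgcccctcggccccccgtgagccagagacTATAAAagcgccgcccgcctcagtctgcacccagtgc
Itga4: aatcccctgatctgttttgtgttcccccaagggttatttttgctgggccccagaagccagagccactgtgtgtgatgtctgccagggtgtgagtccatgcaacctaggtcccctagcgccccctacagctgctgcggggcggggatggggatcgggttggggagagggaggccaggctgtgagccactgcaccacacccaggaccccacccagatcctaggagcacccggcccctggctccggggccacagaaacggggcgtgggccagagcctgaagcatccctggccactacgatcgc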

How the data were processed

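Poly(A) RNA of 3 samples of the 0%-Axitinib group and 3 of the 3%-Axitinib group was sequenced by the authors, who filtered reads with fastp, mapped them to mm10 with STAR 2.5.2b (per the submitters' processing notes) and deposited unnormalized read counts per gene. The layout is that of STAR's gene counts. Neither the annotation nor the strand setting is given in the sources used here. The 4 summary lines name no gene and were removed, among them unmapped reads (3.84% to 48.4% of a library).

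Testing used edgeR 4.0.16 under R 4.3.3: filterByExpr (minimum count 10, minimum total 15), TMM, and the quasi-likelihood test of 3%-Axitinib against 0%-Axitinib, with Benjamini-Hochberg adjustment over all 15257 tested genes. Fold changes and unadjusted P-values of this fit were read against the study's criterion. Pairs of genes and genes against marker means were compared by exact two-sided permutation over samples. Levels per kb, positions and overlaps used GENCODE M21. The script was tested on simulated counts.

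The 9 genes, 5 pathway lists and 13 marker lists were chosen with earlier results of these data known, and 1 further gene of a pathway list was taken out afterwards and is not reported here. Of each list, the most abundant gene and the tested genes with the highest and lowest log2 fold change are named, and of pathway lists every gene that met the criterion, with the 2 genes most similar to each adhesion gene. Alternatives were DESeq2 size factors, total counts, TMM without muscle markers, DESeq2 1.42.0, limma-voom (limma 3.58.1), no filter, at least 10 counts in every sample, the replicate number as a block, a prior count of 0.5 and each sample left out. Figures were drawn with matplotlib 3.10.9 in Python 3.11.15.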

Additional observations from a re-analysis of the deposited data

Results flagged for a closer look

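The reads that STAR left unmapped were not used in any comparison of genes, and their share was higher in the 3%-Axitinib group. They made up 5.47%, 3.84% and 14.9% of the reads in replicates 1, 2 and 3 of the 0%-Axitinib group (8.08% ± 5.99, SD, n = 3) and 48.4%, 29.2% and 16.8% in those of the 3%-Axitinib group (31.5% ± 15.9, SD, n = 3). Every 3%-Axitinib sample was above every 0%-Axitinib sample, with 14.9% and 16.8% as the nearest values (exact two-sided permutation p = 0.1, the smallest that 3 samples against 3 allow). The species of these reads was not analysed here, and their part in the lower values of the adhesion genes was not tested.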

How the results depend on the processing

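All 9 adhesion genes were lower in the 3%-Axitinib group in each of the 125 alternative fits of single genes, where Sele was left out of the filter of 10 counts in every sample. Vcam1, Itgal and Itga4 met the criterion in all 14 alternatives and Icam2 in 10. Calls at the adjusted threshold of 0.05 numbered 1 in edgeR's test, 1734 with DESeq2's Wald test, 2 with limma-voom, 15 without a filter and between 0 and 1252 with 1 sample left out, the most without 0%-Axitinib replicate 3. Genes by the criterion numbered between 2365 and 4422 with 1 sample left out. Of these, between 1308 and 2148 were lower, out of 15690 to 15940 tested genes. On the endothelial side, 1 gene met the criterion with limma-voom, where 1484 of 15257 tested genes were lower by it. Between 1 and 2 met it with 1 sample left out, when the median log2 fold change of this side lay between -1.48 and -0.35. On the leukocyte side, between 2 and 4 genes met it. With 1 sample left out, the sign turned for Sele minus Selplg (-0.48 to 0.76), Selp minus Selplg (-0.33 to 0.96), Sele and Icam2 relative to the endothelial markers (-0.010 to 1.03 and -0.10 to 0.46) and Itgb2 relative to the pan-leukocyte markers (-0.65 to 0.45), all of which overlapped between groups, and the cause was not tested. Icam1 minus Itgal (1.36 to 2.496), Icam2 minus Itgal (0.55 to 1.27) and Vcam1 minus Itga4 (-1.06 to -0.10) kept their sign. The labels do not say whether the replicate numbers pair the samples. Same-numbered samples deviated from their group means with correlations of 0.18, -0.12 and -0.17 across genes. Differently numbered samples had correlations between -0.22 and 0.21. With 3 samples per group, these values cannot decide whether the samples were paired. With the replicate block, 2 genes passed the adjusted threshold and 3 genes of the leukocyte side met the criterion, where 1354 of 15257 tested genes were lower by it. Sele had the fewest reads, between 5 and 64 per sample.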
